A study of Mus musculus with 19 samples.

Results

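The genes described here are the 100 protein-coding genes whose mRNA varied most closely with that of Cox8a from mouse to mouse in the hippocampus. They were chosen by their Pearson correlation with Cox8a over 10 mice, 5 APP/PS1 and 5 WT, on log2(CPM + 1) values from which each group's mean had been removed (CPM, a gene's count scaled to the total of its library). Of the 35640 genes counted at least once, 11574 protein-coding genes reached a mean of 5 CPM in these 10 mice. Names of ribosomal proteins, respiratory chain subunits, ATP synthase, proteasome, the mitochondrial genome and potassium channels were left out, with Sncb and Cort, and the 100 members are the highest of the 11224 genes that remained, which is all 11574 less the 350 with such a name. Cox8a itself has such a name and is the anchor of the list, not one of its members.

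RNA of the hippocampus was sequenced in 19 female mice that were heterozygous carriers or non-carriers of 2 sets of transgenes. The 4 groups were APP/PS1 A2A (n = 4), A2A (n = 5), APP/PS1 (n = 5) and WT (n = 5). APP/PS1 mice carry the human amyloid precursor protein with the Swedish mutation and a presenilin 1 lacking exon 9. A2A mice carry the adenosine A2A receptor behind a promoter that responds to the transactivator tTA, and APP/PS1 A2A mice carry both. The mice of all 4 groups, WT and APP/PS1 included, had the AAV vector for tTA injected into both hippocampi at 3 months and were killed at 6 months, so that vector and surgery were common to every group. The 10 WT and APP/PS1 mice chose the members. The rule used no values of the 9 A2A and APP/PS1 A2A mice. The list was nevertheless set up with earlier results of these data known.

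Cox8a encodes a small nuclear-encoded subunit of cytochrome c oxidase, or complex IV, the last enzyme of the respiratory chain, which passes electrons to oxygen in the inner mitochondrial membrane. Neurons depend heavily on this chain. Subunits of complex IV are made by many separate nuclear genes and by the mitochondrial genome, and they are assembled with the help of dedicated factors such as Coa6. The list is not a pathway fixed in advance, and most of its members have no known tie to complex IV.

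The libraries held 21305902 to 53717373 counts (median 35891080). App, the gene of the amyloid precursor, had 3318 to 4446 CPM in APP/PS1 A2A mice against 1421 to 1733 CPM in A2A mice, and 3517 to 4435 CPM in APP/PS1 mice against 1481 to 1889 CPM in WT mice, so that carriers and non-carriers did not overlap. Adora2a, the endogenous gene of the A2A receptor, had 0.850 to 10.4 CPM in the mice carrying the A2A transgene and 1.09 to 1.91 CPM in the others. The A2A transgene is a recoded cDNA, so Adora2a does not check that label. The 4 neuronal markers summed to 4200 to 6289 CPM in every library, while the 4 choroid plexus markers ranged from 57.7 to 10100 CPM. Fewer cells of a type and less RNA per cell cannot be told apart in such bulk RNA.

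The anchor and its closest followers differ widely in function. The coding starts of Cox8a and of the 4 members of highest r are shown to make their base composition visible, beside that of Hikeshi, the member with the lowest GC content. They are the first 120 coding bases of the GENCODE M21 transcript on GRCm38, and capitals mark each unbroken run of 6 or more G or C bases. On mm10 the genes lie at chr19:7215158-7217616 (Cox8a), chr10:79669369-79676127 (Tpgs1), chr19:46328184-46330446 (Fbxl15), chrX:7919822-7924410 (Pcsk1n), chr19:5456789-5457397 (Ccdc85b) and chr7:89917529-89941204 (Hikeshi).
Cox8a: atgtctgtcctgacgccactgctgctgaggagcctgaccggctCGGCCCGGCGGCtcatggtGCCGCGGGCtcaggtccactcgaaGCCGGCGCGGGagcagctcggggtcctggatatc
Tpgs1: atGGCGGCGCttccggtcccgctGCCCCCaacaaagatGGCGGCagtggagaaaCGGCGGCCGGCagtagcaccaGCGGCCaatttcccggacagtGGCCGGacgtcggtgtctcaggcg
Fbxl15: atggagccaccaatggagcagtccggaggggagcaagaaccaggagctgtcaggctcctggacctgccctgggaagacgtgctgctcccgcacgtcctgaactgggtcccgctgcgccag
Pcsk1n: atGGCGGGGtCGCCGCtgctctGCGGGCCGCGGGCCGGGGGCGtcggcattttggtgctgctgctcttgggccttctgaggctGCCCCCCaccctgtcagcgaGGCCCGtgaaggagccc
Ccdc85b: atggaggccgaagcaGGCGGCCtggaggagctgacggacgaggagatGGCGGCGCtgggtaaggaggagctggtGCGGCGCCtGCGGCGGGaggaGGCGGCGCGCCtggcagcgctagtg
Hikeshi: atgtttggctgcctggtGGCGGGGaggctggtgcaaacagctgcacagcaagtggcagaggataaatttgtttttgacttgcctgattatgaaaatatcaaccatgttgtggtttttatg
G and C made up 70.0% of these bases in Cox8a, 68.3% in Tpgs1, 65.8% in Fbxl15, 73.3% in Pcsk1n, 73.3% in Ccdc85b and 45.0% in Hikeshi. Pcsk1n had 47 bases in such runs, Tpgs1 43, Ccdc85b 42, Cox8a 32 and Hikeshi 7. Fbxl15 had none.

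The level of Cox8a varied 4.86-fold over the 19 mice. In APP/PS1 A2A mice it was 49.7, 60.4, 53.5 and 38.5 CPM, and in A2A mice it was 182, 141, 56.0, 108 and 149 CPM. In APP/PS1 mice it was 187, 107, 88.4, 85.5 and 52.8 CPM, against 84.6, 122, 51.4, 102 and 87.4 CPM in WT mice. The 4 APP/PS1 A2A mice were uniformly low, while every other group spanned low and high mice: A2A replicate 3, APP/PS1 replicate 5 and WT replicate 3 lay at about the level of the APP/PS1 A2A mice. The group means were 50.5 ± 9.14 CPM in APP/PS1 A2A mice (SD, n = 4), 127 ± 47.7 CPM in A2A mice (SD, n = 5), 104 ± 50.3 CPM in APP/PS1 mice (SD, n = 5) and 89.5 ± 25.9 CPM in WT mice (SD, n = 5). From low to high the order was therefore APP/PS1 A2A, WT, APP/PS1 and A2A, and every group overlapped with the others in individual mice.

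Tpgs1, a subunit of the enzyme that adds glutamate chains to tubulin, followed Cox8a mouse by mouse. It had 4.88, 6.07, 4.91 and 4.08 CPM in APP/PS1 A2A mice and 23.8, 16.6, 5.88, 13.5 and 18.5 CPM in A2A mice. It had 22.1, 12.0, 11.9, 9.62 and 5.81 CPM in APP/PS1 mice and 11.2, 14.8, 5.67, 10.8 and 10.4 CPM in WT mice. The same A2A, APP/PS1 and WT mice that were low for Cox8a were low for Tpgs1. Ccdc85b, a coiled-coil protein known to bind transcription factors, showed the pattern with a larger swing. Its CPM were 1.64, 2.90, 1.92 and 1.60 in APP/PS1 A2A mice and 22.1, 17.8, 3.20, 8.63 and 15.8 in A2A mice. Its CPM were 24.0, 10.7, 7.46, 8.09 and 2.60 in APP/PS1 mice and 10.0, 12.7, 1.91, 8.51 and 8.24 in WT mice.

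**Figure D1:**
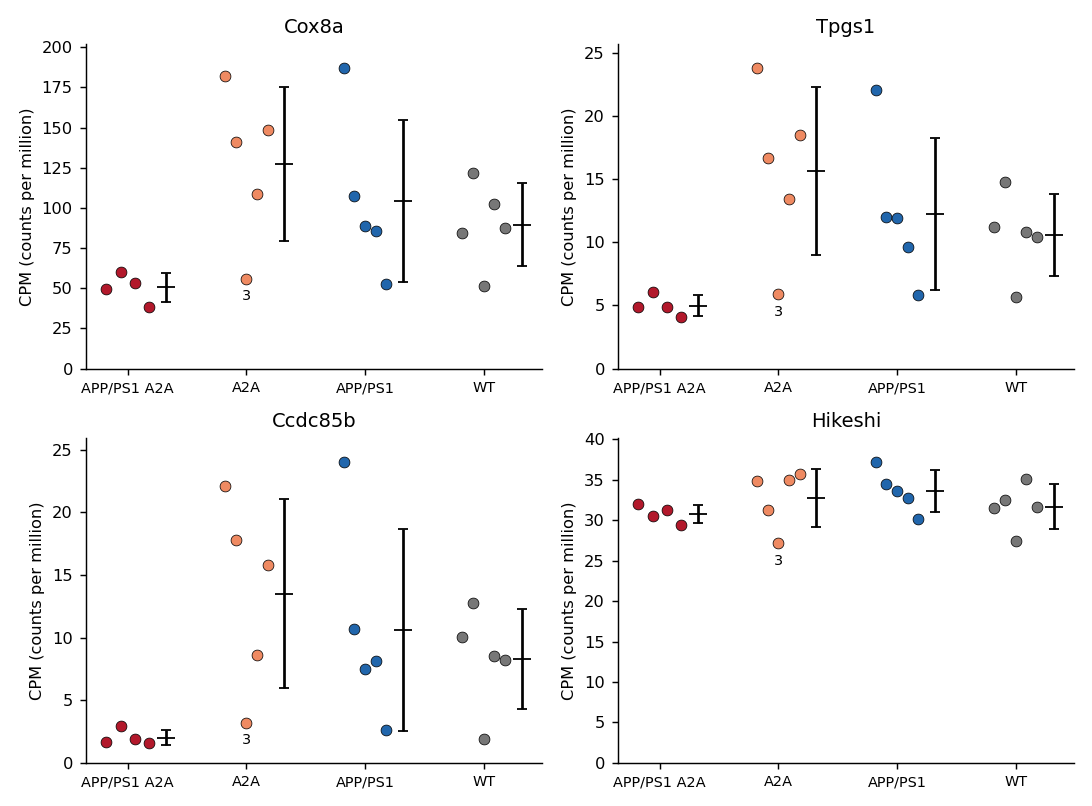
CPM (y axes, from 0) of Cox8a and of 3 members in the 4 groups (x axes), where each point is a mouse and the black mark with its bar is the group mean ± SD (n = 4 for APP/PS1 A2A, 5 for the others). The 3 beside a point marks A2A replicate 3, which lies near the APP/PS1 A2A mice at 56.0 CPM of Cox8a, 5.88 CPM of Tpgs1 and 3.20 CPM of Ccdc85b, while Hikeshi stays between 27.2 and 37.2 CPM in all mice.

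In the 10 mice that chose the list, r ran from 0.981 for Tpgs1 to 0.837 for Hmg20b, with a median of 0.889. These values selected the members and are a description only. After Tpgs1 came Fbxl15 (r = 0.981), the substrate receptor of an SCF ubiquitin ligase, Pcsk1n (0.971), whose product proSAAS is a secretory protein that inhibits prohormone convertase 1, and Ccdc85b (0.969). Then came Bmyc (0.951), a Myc relative of rodents that lacks the DNA-binding end, Prr7 (0.951), a proline-rich membrane protein of synapses, and Irf2bpl (0.950), a nuclear regulator of transcription. Nudc (0.948), a dynein cofactor and co-chaperone, Edf1 (0.946), a bridging cofactor of transcription that also binds ribosomes, and the AP-1 subunit Jund (0.940) complete the first 10. The last members were Mpc2 (0.841), a subunit of the mitochondrial pyruvate carrier, Metrn (0.840) and Hmg20b (0.837), and the first genes outside were Pcdh8 (0.836), 1110065P20Rik (0.836) and Hist1h2bc (0.836). The end of the list thus has no gap in r.

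The list is only in part about respiration. Beside Cox8a, 9 complex IV genes were eligible but were barred by name. Cox6a1 had r = 0.986 and Cox5b r = 0.961 in the mice of the rule, as high as the first members, whereas Cox6b1 had 0.333, Cox4i1 0.351 and Cox7b 0.314, with a median of 0.388 over the 9. Of all 349 barred genes other than Cox8a, 15 reached the r of the last member. They were 7 mitochondrial ribosomal proteins, 3 Nduf genes, 3 Cox genes, 1 Uqcr gene and 1 proteasome gene, and no cytosolic ribosomal protein was among them. Their highest were Cox6a1, Ndufaf8 (0.974), Mrpl52 (0.971) and Psmb4 (0.965). In the mice the rule did not use, Cox6a1 again ran with Cox8a (r = 0.962) and so did Cox5b (0.879), while Cox6b1 had -0.35, Cox5a -0.16 and Cox4i1 0.173.

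The members were sorted by what their products are known to do, a grouping made after they were seen. Of them, 16 regulate transcription, 15 are mitochondrial, 12 are secreted or synaptic proteins and 12 serve the endoplasmic reticulum, vesicles or peroxisomes. Another 8 process RNA, 8 are enzymes of metabolism or redox balance, 5 act on tubulin, nuclear transport or as co-chaperones, and 24 were left ungrouped. The mitochondrial members include Coa6 and Fmc1, assembly factors of complex IV and of ATP synthase, Smdt1, the essential regulator of the calcium uniporter, Nfs1 and Lyrm4, partners in iron-sulphur cluster synthesis, and Romo1, a small protein of the inner membrane, with Smdt1 and Nfs1 named after their values were seen. Of the 89 members with a cellular component in the deposited annotation, 21 (23.6%) had a mitochondrial one, against 13.1% of 10655 eligible genes. These eligible genes include those barred by name, mitochondrial ribosomal proteins and respiratory chain subunits among them, which could not become members. A synaptic component was as common among the members (8 of 89, 8.99%) as among eligible genes (8.94%).

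The members were short and rich in G and C, properties that the rule did not use. The median transcript was 1415 bases long (quartiles 1072 and 2178) against 3300 bases for eligible genes (2139 and 4844), and the median coding length was 669 against 1452 bases. Transcripts of 1500 bases or less made up 57 of the 100 members and 11.6% of eligible genes. Only 5 members exceeded the eligible median length. By the median transcript length per gene in the deposited table the members had 947 bases and eligible genes 1596, and 19 members exceeded the eligible median.

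Fmc1 (479 bases), Romo1 (569) and Rex1bd (671) had the shortest transcripts. Naa38, an auxiliary subunit of an N-terminal acetyltransferase, also had 671 bases. Ccdc85b (4715 bases), Med28 (4560), a subunit of the Mediator complex, and Irf2bpl (4098) had the longest. Ccdc85b shows how far annotations can differ, since the deposited length is 609 bases, close to its coding length of 606. GC content had a median of 57.8% in members against 50.3% in eligible genes, and 61.4% against 53.0% in the coding sequence. It ran from 41.5% in Hikeshi, which carries Hsp70 into the nucleus, to 70.7% in C1qtnf4, a secreted C1q-related protein. GC content over 55% was found in 70 members and 25.4% of eligible genes. Members had a median of 4 exons against 10, and 16 of them had 1 exon against 1.97% of eligible genes, Ccdc85b, Bmyc, Irf2bpl, Jund and Pcbp1, an RNA-binding protein named after its values were seen, among them. Cox8a shares these traits, with 550 bases, a coding length of 207 bases, 2 exons and 58.5% GC.

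**Figure D2:**
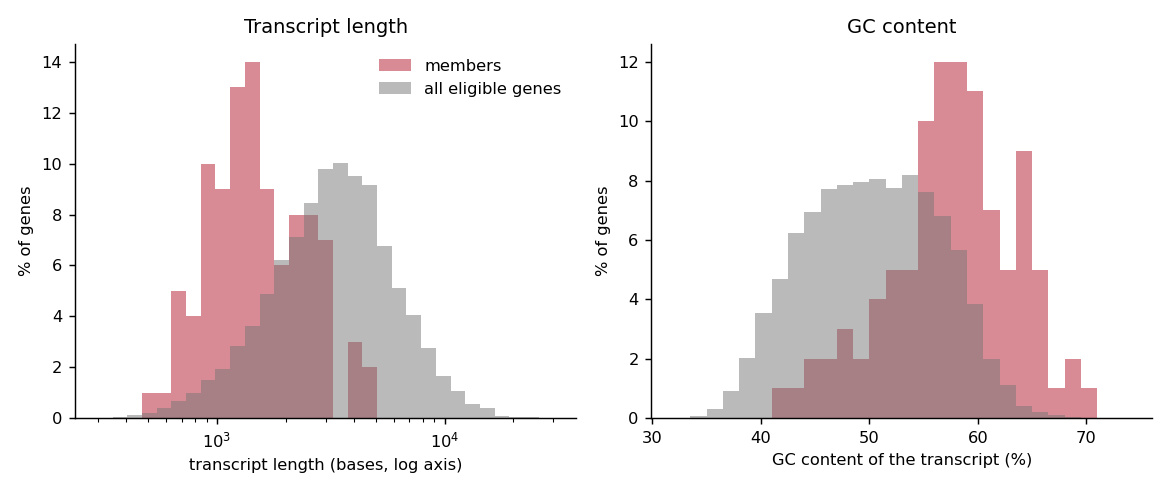
Share of genes (y axes, %) by transcript length (left, bases, log axis) and by GC content of the transcript (right, %), for the 100 members (red) and all eligible genes (grey). The members lie at shorter lengths (median 1415 against 3300 bases) and higher GC content (57.8% against 50.3%).

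Over all 11570 eligible genes with a reference transcript, r with Cox8a in the mice of the rule went with length at Spearman rho = -0.35 and with GC content at 0.09. In the other mice the same values were -0.03 and 0.02. These are correlations across genes, which share libraries and are not independent. Of the eligible genes outside the list, 984 had both a transcript of 2139 bases at most and a GC content of 55.1% at least, the outer quartiles. Their median r was 0.216 in the mice of the rule and 0.098 in the others. All eligible genes outside the list had 0.0497 and 0.0397, and the members, which were chosen by r, had 0.889 and 0.759.

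The 250 bases before the start, taken from RefSeq on GRCm38.p6 at the first listed start, were at hand for 84 members and 9155 eligible genes. Their median GC content was 59.2% in members and 60.8% in eligible genes, so that the GC richness of the transcripts was not seen upstream. The GC box GGGCGG was found on either strand in 48.8% of members, 61.3% of eligible genes and 32.9% of all 27025 promoters. The NRF1 core GCGCATGC was found in 7 members (8.33%), 4.76% of eligible genes and 2.32% of all promoters. The ETS core CCGGAAG was found in 14 members (16.7%), 13.6% of eligible genes and 7.05% of all promoters. The cyclic AMP response element TGACGTCA was found in 6 members (7.14%), 2.95% of eligible genes and 1.62% of all promoters. The YY1 core AAGATGGC was found in 2 members (2.38%), 2.01% of eligible genes and 1.59% of all promoters. The TATA box TATAAA was found in 7 members (8.33%), 5.71% of eligible genes and 13.0% of all promoters. The CCAAT box was found in 22 members (26.2%), 36.3% of eligible genes and 34.5% of all promoters. Matches of different motifs may overlap, and the counts are matches of letters only.

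By chromosome the members were spread, with 16 on chromosome 7 (7.30% of eligible genes), 11 on chromosome 10 (4.87%) and 11 on chromosome 2 (7.98%). On mm10, Cox8a lies on chromosome 19, as do 5 members, Fbxl15 and Ccdc85b among them. None lies on chromosome 18.

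Per kilobase of the deposited length, Cst3 stood highest at 1069 CPM per kb, Aes had 390 and Cbarp 233, and Cox8a had 175. Cst3 encodes the secreted protease inhibitor cystatin C, Aes a corepressor of the Groucho family and Cbarp a regulator of calcium channels. Ccdc86 (2.81), F8a (3.28) and Prr7 (3.98) stood lowest. The median was 19.02 CPM per kb in members and 24.1 in eligible genes. Without the scaling by length, the mean over the 19 mice had a median of 17.4 CPM in members (quartiles 8.92 and 37.3) and 37.6 CPM in eligible genes (16.5 and 82.6).

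The question for the 9 mice outside the rule was whether the same genes still ran with Cox8a. They did so in most members by the size of r, without any gene passing the test. The median r of the 100 members was 0.759 (quartiles 0.533 and 0.895), against 0.0397 over the 11473 eligible genes outside the list. It was positive in 97 members and in 54.8% of eligible genes, and above 0.9 in 24 members and in 0.354% of eligible genes. The 3 members below 0 were Pomgnt2 (-0.35), a glycosyltransferase that acts on dystroglycan, Lyrm4 (-0.27) and Naa38 (-0.14). Pigx, a subunit of the first mannosyltransferase of GPI anchor synthesis, and Htatip2 were near 0, at 0.0080 and 0.014.

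The test was a two-sided exact permutation of Cox8a's values within the 2 groups, with Benjamini-Hochberg adjustment over all 11573 genes. It has 2880 orders, so that its smallest p is 0.00035. After adjustment over 11573 genes a gene can be called only where many reach that p, so a lack of calls says little here. No member was called at an adjusted p under 0.05 with r above 0, and neither was any other gene (0% of 11573). At an unadjusted p under 0.05 and r above 0 there were 45 members, where 1.68% of all genes were found. With Spearman's rho in place of Pearson's r there were also no calls, and 30 members at an unadjusted p under 0.05, where 0.933% of all genes were found. The members share their mice and move together, with a median r between pairs of members of 0.607 in these 9 mice (0.0477 for pairs of eligible genes). The 45 are thus not 45 separate observations.

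Tpgs1 had the highest r in these mice (0.989, rho = 1, exact permutation p = 0.00035, the smallest the design allows). Fbxl15 had 0.983 (p = 0.0010 by the same exact test), Pcsk1n 0.976 (p = 0.00069), and Prelid1 0.972 (p = 0.00069). Prelid1 moves phosphatidic acid between the mitochondrial membranes. Coa6, the complex IV assembly factor, had 0.972 (exact permutation p = 0.0017). Thus the first 3 members by the rule were also the first 3 in mice whose values it did not use. Nudc, eighth by the rule, had only 0.480 there (exact permutation p = 0.19) and Edf1, ninth, had 0.760 (p = 0.041).

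**Figure D3:**
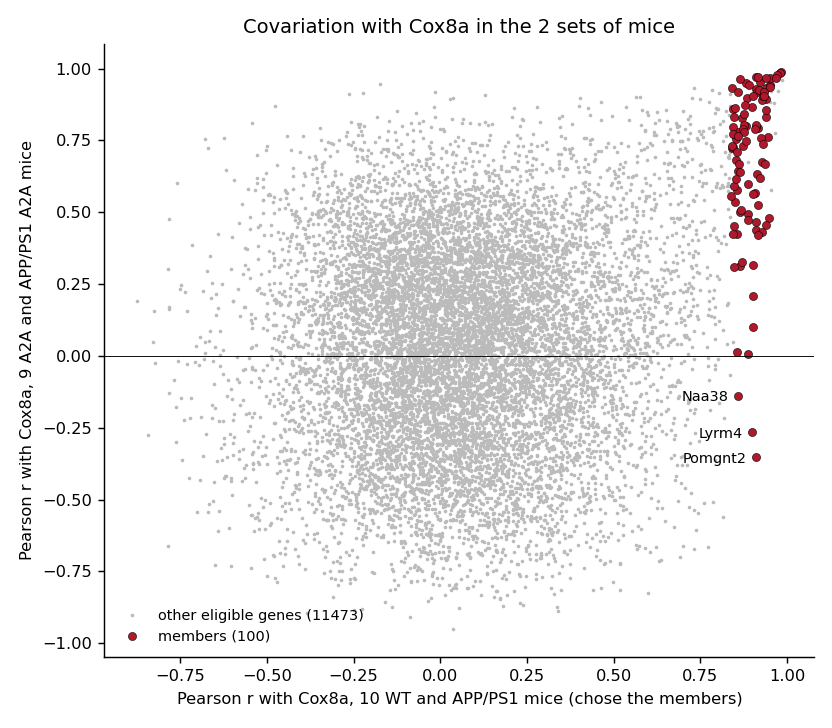
Pearson r with Cox8a in the 10 WT and APP/PS1 mice that chose the members (x axis) and in the 9 A2A and APP/PS1 A2A mice (y axis), for the 100 members (red) and 11473 other eligible genes (grey). The members lie between 0.837 and 0.981 on the x axis by construction, and 97 of them are above 0 on the y axis, the exceptions being the 3 labelled genes.

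The size of r in these mice leaned on 1 animal. A2A replicate 3 had the lowest Cox8a of its group, and without it the median r of the members was 0.387 (-0.04 over eligible genes), with 87 members above 0 (44.9% of eligible genes) and 14 at an unadjusted p under 0.05 (0.458%). Leaving out any other single mouse gave medians of 0.727 to 0.815. Without the 2 mice farthest from the median of Cox8a, A2A replicates 3 and 1, the median r was 0.258 in members and -0.11 in eligible genes, and 80 members were above 0, as were 4615 of 11573 eligible genes. With those 2 mice left out, r stayed over 0.8 in 10 members and in 0.441% of eligible genes. Singled out after their values were seen, these 10 were Tpgs1 (0.959), Coa6 (0.937), Prelid1 (0.918), Zfp771 (0.909), Fbxl15 (0.905), Pgp (0.898), Pcsk1n (0.875), Prr7 (0.850), Jund (0.847) and Ccdc85b (0.824). Zfp771 is a zinc finger protein and Pgp a phosphatase of metabolites.

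By function, the median r in the 9 mice was 0.835 in the 16 regulators of transcription, 0.794 in the 8 RNA processing genes, 0.784 in the 8 enzymes, 0.750 in the 12 secreted and synaptic genes and 0.682 in the 15 mitochondrial genes. It was 0.551 in the 12 genes of the endoplasmic reticulum, vesicles and peroxisomes and 0.480 in the 5 genes of tubulin and nuclear transport. It was 0.784 in the 50 members richer in GC and 0.731 in the 50 poorer ones. Without A2A replicates 3 and 1 this order did not hold. The medians were then 0.492 in the enzymes, 0.369 in the regulators of transcription, 0.340 in the secreted and synaptic genes and 0.285 in the mitochondrial genes. They were 0.255 in the tubulin and nuclear transport genes, 0.135 in the endoplasmic reticulum group and 0.119 in the RNA processing genes. The richer and poorer members in GC had 0.377 and 0.176.

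The members followed Cox8a with very different reach. The slope, the log2 change of a member per log2 change of Cox8a within groups, had a median of 0.327 in the mice of the rule and 0.299 in the other 9. It was steepest in Ccdc85b, at 1.62 in the mice of the rule and 1.42 in the others, so that this gene swung more than Cox8a itself. Pcsk1n had 1.36 and 1.28, C1qtnf4 1.18 and 1.15, Prr7 1.23 and 0.950, Tpgs1 0.959 and 1.03, and Jund 0.962 and 0.893, in the same order of mice. These 6 exceeded 0.8 in both sets of mice, as did 7 of all eligible genes. At the other end Jagn1, an endoplasmic reticulum protein, had 0.105 and 0.118, and Nfs1 had 0.123 and 0.0921. A high r therefore did not mean a large swing.

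**Figure D4:**
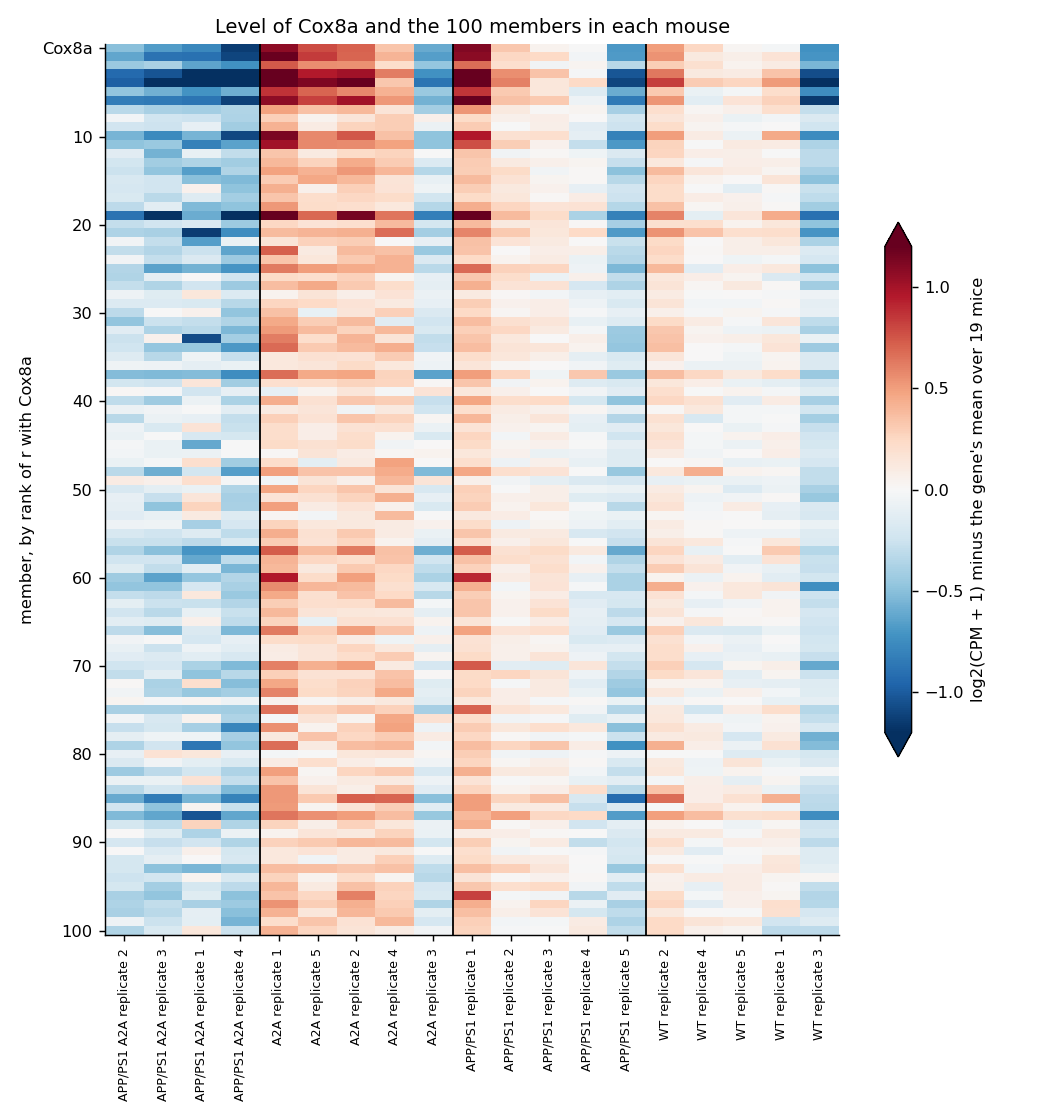
Level of Cox8a (top row) and of the 100 members (rows, by rank of r in the mice of the rule) in each of the 19 mice (columns, ordered by Cox8a within a group), as log2(CPM + 1) minus the gene's mean over 19 mice, with the colour scale ending at 1.2 in either direction. The 4 APP/PS1 A2A mice, A2A replicate 3, APP/PS1 replicate 5 and WT replicate 3 are blue over most rows, and A2A replicate 1 and APP/PS1 replicate 1 are the reddest.

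As a set the members were lowest in APP/PS1 A2A mice. The median deviation of the 100 members from their means over 19 mice, on the log2(CPM + 1) scale, was -0.39 to -0.20 in APP/PS1 A2A mice, -0.15 to 0.38 in A2A mice, -0.29 to 0.31 in APP/PS1 mice and -0.27 to 0.19 in WT mice. The APP/PS1 A2A mice lay below all A2A mice, and they overlapped with the lowest APP/PS1 and WT mice.

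The comparison of APP/PS1 A2A with A2A asks what the amyloid genotype did in mice that overexpressed the receptor, and none of its mice chose the members. It is still not free of the choice, since the list was set up with earlier results of these data known. Cox8a itself was lower here (log2 fold change -1.30), and genes chosen to follow Cox8a would tend to lean the same way. All 100 members were among the 18529 genes tested by edgeR's quasi-likelihood test. Their median log2 fold change was -0.44 (quartiles -0.68 and -0.29) against 0.0030 over all genes, and 99 members were below 0, as were 9090 of the genes tested. No member was called in either direction, which required a log2 fold change beyond 0.32 in size with a Benjamini-Hochberg adjusted p below 0.05, where 0.0054% of genes tested were called lower. The smallest adjusted p of a member was 0.11. At an unadjusted p under 0.05, 82 members were lower, where 5.39% of genes were. The members move together in these mice (median r between pairs 0.607). These counts, and the counts of calls below, are thus not counts of separate observations.

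DESeq2 with default options called 42 members lower and none higher, where it called 0.577% of genes lower, so that members made up 42 of its 107 lower calls. Without A2A replicate 3, edgeR called 37 members lower, where 0.427% of genes tested were called lower, and the median of the members was -0.51. That mouse had the lowest Cox8a of its group. Leaving it out was bound to widen the difference in Cox8a and in genes that follow it, so values without it are a description only. The call thus turned on the tool and on 1 mouse, while the size of the difference moved little. All 4 APP/PS1 A2A mice lay below all 5 A2A mice in 35 members (1.99% of genes tested) and below the A2A mice other than replicate 3 in 80 members (4.17%).

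Cox8a had a log2 fold change of -1.30 (SE 0.33) in APP/PS1 A2A versus A2A, with an adjusted p of 0.16 by edgeR's quasi-likelihood test and 0.014 by DESeq2. Without A2A replicate 3, the A2A mouse lowest for Cox8a, it was -1.49 (adjusted p = 0.034 by edgeR), a widening that follows from that choice. Ccdc85b had the lowest value of the members, -2.70 (SE 0.61, adjusted p = 0.14 by edgeR, 0.0051 by DESeq2). Pcsk1n followed at -2.12 (SE 0.46) and Prr7 at -1.98 (SE 0.48). Prr7 had 2.03, 2.12, 2.10 and 1.56 CPM in APP/PS1 A2A mice and 10.7, 10.2, 2.76, 6.99 and 8.82 CPM in A2A mice. C1qtnf4 had -1.85 (SE 0.45) and Tpgs1 -1.61 (SE 0.36), and DESeq2 called all of these lower.

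Pcsk1n had 11.8, 17.7, 16.4 and 11.6 CPM in APP/PS1 A2A mice, and 109, 70.9, 20.6, 53.6 and 67.9 CPM in A2A mice, with no overlap. Jund had 7.78, 7.82, 6.61 and 5.09 CPM in APP/PS1 A2A mice, and 27.4, 20.7, 8.28, 15.5 and 18.3 CPM in A2A mice. In both genes A2A replicate 3 was the only A2A mouse near the APP/PS1 A2A mice. Sst, the neuropeptide somatostatin of interneurons, had 80.0, 77.8, 65.9 and 67.4 CPM in APP/PS1 A2A mice, and 171, 195, 83.3, 193 and 147 CPM in A2A mice (log2 fold change -1.09, SE 0.25, adjusted p = 0.14 by edgeR). The 5 interneuron markers had a median log2 fold change of -0.24, with 4 below 0 and none past an unadjusted p under 0.05.

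Coa6 had 4.11, 4.13, 4.09 and 3.38 CPM in APP/PS1 A2A mice, and 10.7, 9.21, 3.71, 7.86 and 9.08 CPM in A2A mice. Here A2A replicate 3 fell inside the APP/PS1 A2A range. Cst3, the most abundant member, had 672, 625, 521 and 497 CPM in APP/PS1 A2A mice, and 1104, 996, 544, 1069 and 994 CPM in A2A mice, with the same single overlap. Sf3b5, a small subunit of the splicing factor SF3b, had a log2 fold change of -0.76 (SE 0.18) and Snrpa, a protein of the U1 particle, -0.38 (SE 0.09), both with an adjusted p of 0.14 by edgeR. Fmc1 had -0.85 (SE 0.20) and Rabac1, a membrane protein that binds Rab proteins, -0.60 (SE 0.15). Dohh, which completes the hypusine of the translation factor eIF5A, had -1.26 (SE 0.30) and Ly6h, a membrane-anchored protein of neurons, -0.76 (SE 0.20). Lsm4, of the ring that binds U6 RNA, had -0.46 (SE 0.12), the stress-responsive Gadd45g -0.69 (SE 0.18), Fam213b -0.49 (SE 0.12), the GTPase Arf5 -0.49 (SE 0.12) and the glutathione peroxidase Gpx1 -0.42 (SE 0.14).

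The members with the highest values were Htatip2 (0.0023), Jagn1 (-0.00034), Lyrm4 (-0.05), Hikeshi (-0.06) and Zfp777 (-0.09), each with an SE of 0.06 to 0.10. Hikeshi had 32.1, 30.6, 31.2 and 29.4 CPM in APP/PS1 A2A mice, and 34.8, 31.2, 27.2, 34.99 and 35.7 CPM in A2A mice, so that its groups overlapped in part, with 3 A2A mice above every APP/PS1 A2A mouse. Of the groups of members, the 12 secreted and synaptic genes had the lowest median (-0.63), all 12 being lower at an unadjusted p under 0.05. The 15 mitochondrial genes had -0.54 (11 at an unadjusted p), the 16 regulators of transcription -0.53 (13), the 8 enzymes -0.45 (7) and the 8 RNA processing genes -0.40 (7). The 12 genes of the endoplasmic reticulum, vesicles and peroxisomes had -0.28 (9).

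Gene lists of the respiratory chain, splicing and synapse were set beside the members. In APP/PS1 A2A versus A2A the 38 tested genes of complex I had a median log2 fold change of -0.18, with 20 lower at an unadjusted p under 0.05 and none called. The 14 genes of complex IV, Cox8a included, had -0.31 (8 lower at an unadjusted p), the 16 of ATP synthase -0.19 (10) and the 9 of complex III -0.18 (6). The 39 spliceosome genes had -0.09 (7), and the 17 of the vacuolar ATPase 0.02 (2). The 34 long synaptic genes, with a median transcript of 10798 bases, had 0.14, with 29 of them above 0 and 1 higher at an unadjusted p. The 44 synaptic and signalling small proteins had -0.16, with 29 below 0, 15 lower at an unadjusted p and 1 called lower by edgeR, which was the neuropeptide gene Cort that the rule left out, named after its value was seen. These lists hold 0 to 3 members, and the mitochondrial import and assembly list, with 8 members among 57 tested genes, had -0.15 (21).

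APP/PS1 versus WT gives the genotype effect without the receptor transgene, in the same mice that chose the list. The members' median log2 fold change was 0.06 (quartiles 0.02 and 0.10, and 0.0039 over all genes), with 87 members above 0, as were 9561 of the genes tested. No member passed edgeR's adjusted p under 0.05 (0.054% of genes did) or an unadjusted p under 0.05 in the higher direction (1.38% of genes did). DESeq2 called none. Without APP/PS1 replicate 1, the mouse highest for Cox8a, the median was -0.04. Cox8a had 0.23 (SE 0.30).

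In A2A versus WT the median of the members was 0.20 (0.00098 over all genes), with 99 members above 0, as were 9317 of the genes tested. Adjusted calls by edgeR were none (0% of genes tested), and 17 members were higher at an unadjusted p under 0.05 (1.98% of genes). That count was 52 without A2A replicate 3 and 3 without WT replicate 3. The shares of all genes in those fits are not given here, so the counts show only that the number moved with 1 mouse. DESeq2 called no member. Cox8a had 0.50 (SE 0.30, adjusted p = 0.96 by edgeR). Aes had 212, 235, 213 and 200 CPM in APP/PS1 A2A mice, 315, 296, 252, 334 and 293 CPM in A2A mice and 263, 277, 209, 238 and 249 CPM in WT mice, and its log2 fold change in A2A versus WT was 0.26 (SE 0.09).

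In APP/PS1 A2A versus APP/PS1 the median of the members was -0.30 (-0.0062 over all genes), with 98 below 0, as were 9684 of the genes tested. No member was called by edgeR (0% of genes tested) or by DESeq2, and 59 were lower at an unadjusted p under 0.05 (2.06% of genes). Lyrm4 was the 1 member higher at an unadjusted p, at 0.20 (SE 0.09). Cox8a had -1.03 (SE 0.33).

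The difference between the genotype effects, that in A2A mice minus that in mice without A2A, was below 0 in all 100 members and in 9271 of the genes tested. Its median was -0.49 in members (-0.00011 over all genes). It was called in none by edgeR (0% of genes tested) or by DESeq2, and 76 members were below 0 at an unadjusted p under 0.05 (3.15% of genes). For Cox8a it was -1.53 (SE 0.45). For Ccdc85b it was -3.05 (SE 0.79) and for Pcsk1n -2.50 (SE 0.61). These comparisons share groups of mice, so their values for the members stand side by side and are not separate lines of evidence.

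**Figure D5:**
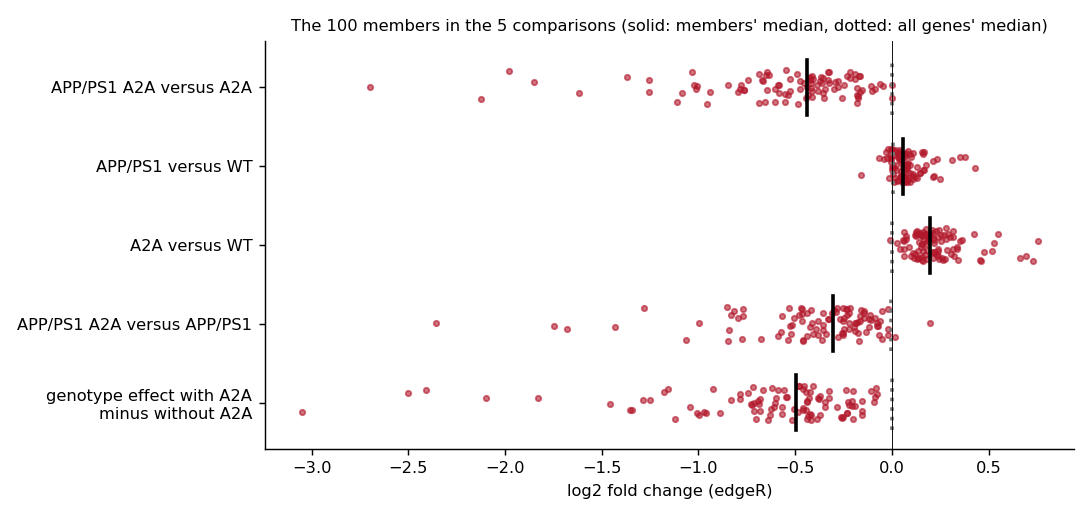
Log2 fold change by edgeR (x axis) of each of the 100 members (red points) in the 4 comparisons of groups and in the difference of the genotype effects (rows), with the members' median as a solid bar and the median of all 18529 genes as a dotted bar. The members' medians are -0.44, 0.06, 0.20, -0.30 and -0.49 from top to bottom, and those of all genes are all within 0.01 of 0.

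Several properties of the libraries were set beside Cox8a over the 19 mice with group means removed. Over 12 such relations tested with 100000 permutations within groups, none had an adjusted p under 0.05. The slope of each library's values with transcript length, fitted without the members, had r = -0.26 with Cox8a (rho = -0.31, permutation p = 0.30 and 0.23, adjusted p = 0.88 and 1, and r = -0.49 without the 2 mice farthest in that slope). Its slope with GC content had r = 0.0944 (rho = 0.104, permutation p = 0.76 and 0.70, adjusted p = 0.88 and 1), and r = 0.158 without the 2 farthest mice. The total count had r = -0.24 (rho = -0.10, permutation p = 0.39 and 0.71, adjusted p = 0.88 and 1), and 0.288 without the 2 farthest.

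The differences between groups were smaller once such trends were taken off. With each library's trend over 14925 genes, members included, entered as offsets, the members' median in APP/PS1 A2A versus A2A was -0.31 in place of -0.44, and in A2A versus WT it was 0.10 in place of 0.20. With values adjusted for the trend, the median r in the 9 mice was 0.663 (-0.05 over eligible genes), and 68 of the 100 members were picked again. The marker sums of neurons (r = -0.24), interneurons (0.0780), astrocytes (0.365), oligodendrocytes (-0.09), microglia (0.0770), endothelium (-0.16), choroid plexus (-0.02) and red blood cells (-0.43), and the share of counts from the mitochondrial genome (0.165), had adjusted permutation p of 0.88 or more. The part of cell composition and of RNA quality in the shared pattern was not tested.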

How the data were processed

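Hippocampal RNA of 19 mice was sequenced, with 1 library per mouse. The authors made stranded libraries of polyadenylated RNA, sequenced single reads, removed ribosomal reads, aligned with STAR 2.5.3a to mm10 and counted reads per gene with HTSeq 0.6.1p1 in union mode. These deposited counts are not normalized. The deposited table also holds the authors' log2 fold changes, p-values and adjusted p-values from DESeq2 1.16.1, none of which was used, and a median transcript length per gene, used for CPM per kilobase.

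CPM used the total of all genes, and correlations used log2(CPM + 1). The members and gene lists were chosen with earlier results of these data known. Genes were named by a fixed rule (extremes of r, fold change, level and length, and in each list at most 3), and the text says which were chosen later. Contrasts used edgeR 4.0.16 (TMM, quasi-likelihood, 4 group means, R 4.3.3), with genes kept by edgeR's filter at a minimum count of 10 (18529 genes), and calls needed a log2 fold change beyond 0.32 in size with an adjusted p below 0.05. Alternatives were DESeq2 1.42.0, limma-voom 3.58.1, other filters and normalizations, offsets for trends, and leaving out each mouse. Transcript length and GC content came from GENCODE M21, 1 transcript per gene, for all 100 members. The steps were tested on simulated data. Each mouse is a sample, and intervals of depth cover counting error only.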

Additional observations from a re-analysis of the deposited data

Results flagged for a closer look

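For 43 genes named for the comparisons, Dixon's ratio was tested in 172 groups of mice, where chance gives about 1 in 20. A number near that, 9 groups, held 1 mouse far from the others. In 4 genes it was A2A replicate 3, with the low values already described: Cst3 had 544 CPM (994 to 1104 in the other A2A mice), Rex1bd 13.5 CPM (23.3 to 27.0), Sf3b5 14.5 CPM (25.1 to 27.3) and Arf5, a small GTPase of the Golgi, 56.1 CPM (79.4 to 86.8). In 3 genes it was APP/PS1 A2A replicate 4, the library lowest for Cox8a: Prr7 had 1.56 CPM (2.03 to 2.12 in the other APP/PS1 A2A mice), Prelid1 27.6 CPM (30.8 to 31.2) and Coa6 3.38 CPM (4.09 to 4.13). Lyrm4 had 12.3 CPM in WT replicate 3 (14.3 to 14.6 in the other WT mice). Htatip2 had 10.6 CPM in APP/PS1 replicate 1 (8.03 to 8.36 in the other APP/PS1 mice).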

How the results depend on the processing

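Of the 100 members, 90 were picked again with TMM library sizes, 68 with Spearman's rho, 91 at a mean of 1 CPM, 92 with group means kept, and 68 with values adjusted for GC content and length, an alternative chosen after seeing the data. At a mean of 20 CPM 45 were picked, which is every member that reaches that level. Leaving out 1 mouse gave 42 (without APP/PS1 replicate 1) to 91, and 63 without APP/PS1 replicate 5. The median r in the 9 other mice was 0.387 to 0.815 over the omissions, with no calls in any. In APP/PS1 A2A versus A2A, edgeR called 0 members, DESeq2 42 and the omissions of 1 mouse 0 to 37. The members' median stayed between -0.51 and -0.31 there. In APP/PS1 versus WT it ran from -0.037 (without APP/PS1 replicate 1) to 0.12 when 1 mouse was left out, and members past an unadjusted p from 0 to 1. In A2A versus WT the members past an unadjusted p numbered 4 with the offsets and 3 to 52 without 1 mouse. In APP/PS1 A2A versus APP/PS1 they numbered 38 to 69 without 1 mouse, and for the difference of the genotype effects 45 with the offsets. Shares of all genes are not given for these settings, so such counts show only how far the number of members moved. Cox8a in APP/PS1 versus WT ran from -0.11 to 0.38.

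Values near 0 changed sign in APP/PS1 A2A versus A2A. Jagn1 had 0.010 with DESeq2 size factors, 0.0048 without a filter, 0.0012 with 10 counts in every mouse, 0.067 with offsets, 0.010 with DESeq2, 0.0012 with limma-voom, 0.011 with the compared groups alone and -0.037 to 0.027 without 1 mouse. Zfp777 had 0.013 with offsets, Htatip2 -0.019 with limma-voom and -0.053 to 0.056 without 1 mouse, and Lyrm4 -0.10 to 0.016 without 1 mouse. No paired analysis was possible because the labels give no replicate numbers, and the numbers used here only name mice in accession order. With 9 mice the exact test cannot fall below a p of 0.00035, and adjustment over 11573 genes then calls a gene only where many reach it. The cause of the other shifts was not tested.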

Other observations

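The list of immediate early genes, which are induced by neuronal activity, holds no member. Its 15 eligible genes had a median r of 0.593 in the 9 A2A and APP/PS1 A2A mice, with 13 above 0 (54.8% of all eligible genes) and none called, and of -0.12 in the 10 APP/PS1 and WT mice. The 18 tested genes of that list had a median log2 fold change of -0.48 in APP/PS1 A2A versus A2A, with 15 below 0, 4 lower at an unadjusted p under 0.05 and none called by edgeR. The 17 genes of the vacuolar ATPase had a median r of 0.0436 in the mice of the rule and of -0.41 in the others. The 43 eligible proteasome genes had 0.170 and -0.33, although Psmb4 alone had 0.965 in the mice of the rule. The difference between the sets of mice was not tested for these lists. The members' r in the 9 mice leaned on A2A replicate 3, and the medians of these lists without it are not given here.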
